A study of Mus musculus with 4 samples.

Results

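The genes described here are 45 mouse genes that run cell division: mitotic kinases and the cyclins that switch them on, the spindle checkpoint, the kinetochore, the chromosomal passengers, the spindle and cytokinesis apparatus, securin and separase, and condensin with its neighbours on the chromosome. They were found by name, as every probe whose gene name on the array, or whose current symbol, is one of the 45. All 45 were on the array, with 82 probes, and all 45 were among the 17537 features tested. The cells were male mouse germline stem cells, testis stem cells kept in culture. Both groups carried a conditional Nanos2 overexpression construct and the recombinase the labels call Rose-CRE-ERT2, which acts once 4-hydroxytamoxifen binds it. The induced group took 4-hydroxytamoxifen for 48 hours and the control group took the solvent DMSO for 48 hours, with 2 arrays each. All cells grew on mitomycin-treated fibroblast feeders from C57Bl6 embryos of day 13.5, with GDNF, EGF and FGF2, and per the labels the feeders were taken away before RNA extraction. No group took 4-hydroxytamoxifen without the construct, so effects of Nanos2, of the compound and of the recombinase cannot be told apart.

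Cyclin-dependent kinase 1, the product of Cdk1, drives cells into mitosis when cyclin A or cyclin B binds it and a CDC25 phosphatase removes its inhibitory phosphates. Polo and Aurora kinases then build the spindle, the kinetochore joins each chromosome to it, and the spindle checkpoint holds CDC20 back until every chromosome is attached. Once CDC20 is free, the anaphase-promoting complex marks securin and cyclin B for destruction, and separase opens the cohesin rings. Transcripts of many of these genes are known to accumulate in G2 and mitosis, so their level in a culture depends on how many of its cells divide. In bulk RNA, fewer dividing cells and less transcript per dividing cell cannot be told apart.

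Nanos2, the gene switched on, read 903.8 and 1070 units of processed signal on the induced arrays, against 352.8 and 351.7 on the DMSO arrays. The rise was 1.56 ± 0.11 on the log2 scale (SE, 2 arrays per group; limma adjusted p = 0.000980 over all probes), which is 2.94-fold. Where this probe lies relative to the construct is not given in the sources used here. All log2 differences below are induced minus DMSO, from processed signals scaled to the 75th percentile of each array, and the signals printed are those before scaling. Each array held 41174 probes, of which 26393 were well above background on at least 2 arrays, and no spot was saturated. Scaled values correlated at 0.9962 between the induced arrays and at 0.9951 between the DMSO arrays, against 0.945 to 0.952 between arrays of different groups. The germ cell gene Ddx4 was well above background on all 4 arrays, at 18716 and 20047 units in the induced cells and 23793 and 22119 units in the DMSO cells.

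Mitotic genes were lower in the induced cells almost without exception. Of the 45, 43 fell, 0 rose and 2 did not pass the test (limma, adjusted p under 0.05 over all features). Across all features tested 29% were called lower and 40.5% higher. Higher calls made up 58.3% of all calls, but 46.7% with arrays scaled to their median and 50.2% with spike-in scaling. A fall of at least 2-fold was called for 38 of the 45, against 8.05% of all features, and one of at least 4-fold for 22 of the 45, against 1.51% of all features. In 44 of the 45 both induced arrays lay under both DMSO arrays, which held for 37.3% of all features. The median difference of the 45 was -1.96 on the log2 scale, with quartiles of -2.55 and -1.37, while the median over all features was 0.12, with quartiles of -0.38 and 0.71. The largest falls were those of Aurkb, Ccna2, Ccnb2, Spc24 and Mki67, the 5 members that fell at least 8-fold.

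**Figure D1:**
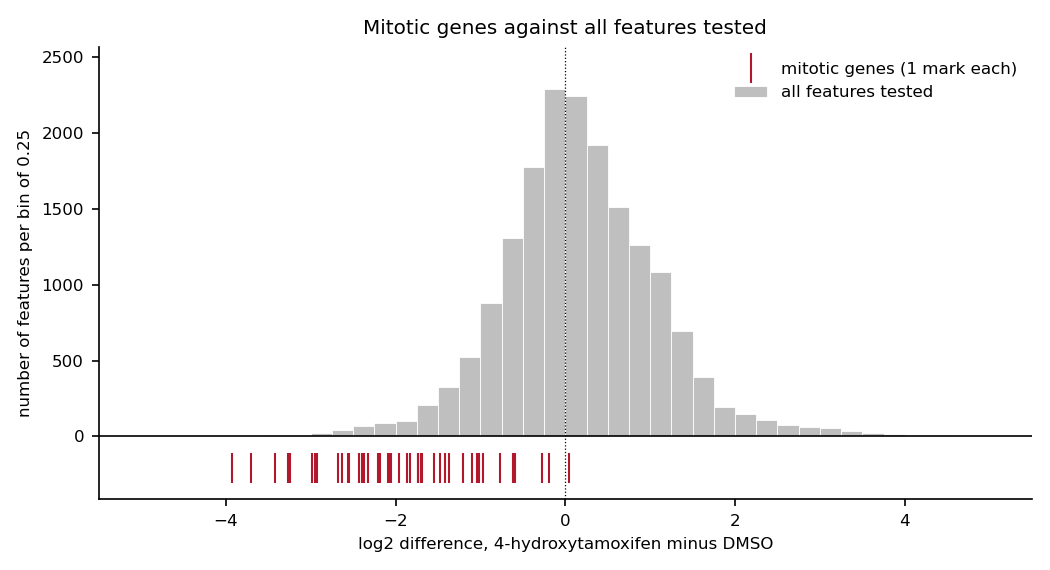
Grey bars count all 17537 features tested by their log2 difference, induced (4-hydroxytamoxifen) minus DMSO, in bins of 0.25 with the ends gathered. Each red mark under the axis is 1 of the 45 mitotic genes, and 44 of them lie left of 0, while the median of all features is 0.12.

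The genes were also seen through more than 1 probe. Of their 82 probes, 74 passed the filter, and 67 of those were called lower, 0 higher and 7 not called. Among the 67, a dim probe each of Cenpf, Ect2, Nusap1 and Smc2 passed the filter through the DMSO arrays alone. Such a probe could hardly be called other than lower, so its call adds little. Over all probes that passed, 30.8% were called lower and 36.4% higher. In 22 genes at least 2 probes passed, and probes of one gene share its transcript and are not replicates. The 8 probes that did not pass are further probes of genes that another probe measured, and they read 3.13 to 9.33 units, apart from 1 DMSO array at 41.6 units for Espl1. All 45 probes that stand for a gene, the brightest of each, were well above background on all 4 arrays.

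Markers of other cell types differed between the groups as well. Of 30 fibroblast markers, 29 were tested, 27 rose and 0 fell, with a median of 0.93. Their summed scaled signal was 929 and 882 in the induced cells and 466 and 532 in the DMSO cells. Thbs1 (1.49 ± 0.11, adjusted p = 0.00105), Pdgfrb (1.40 ± 0.07, adjusted p = 0.000556) and Twist2 (1.31 ± 0.09, adjusted p = 0.000839) rose most. Of 13 macrophage and blood markers, 11 were tested, 7 rose and 0 fell, against 40.5% of all features called higher, with summed scaled signals of 37.3 and 38.2 in the induced cells and 17.0 and 18.9 in the DMSO cells. Lyz2, the brightest of this list, rose and gave most of these sums, so they say little of its dimmer markers. Hba-a1 rose by 1.44, while Cd68 (0.12), Ptprc (0.02), Hbb-bt (-0.23) and Pecam1 (-0.47) did not pass. Of 14 markers of Sertoli and Leydig cells, 9 were tested, 6 rose and 2 fell, and Cldn11 rose most, by 3.59. Wt1 (-0.88) and Cyp17a1 (-0.43) fell, and Star (-0.12) did not pass. The summed scaled signal of this list was 13.0 and 12.3 in the induced cells and 5.77 and 6.39 in the DMSO cells. Inhbb, the brightest of the list, gave most of it. Amh, Gata4, Cyp11a1 and Hsd3b1 did not pass the filter.

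Of 16 spermatogonial markers, 15 were tested, 13 fell and 0 rose, against 29% of all features called lower, with a median of -1.20. Nanos3, which encodes a relative of Nanos2, had the lowest difference (-4.76 ± 0.13, adjusted p = 0.000365), followed by the GDNF receptor gene Gfra1 at -2.44. Ret, its co-receptor gene, was not well above background in the induced cells, and its fall was at least 1.25-fold. The summed scaled signal of the list was 109 and 111 in the induced cells and 157 and 156 in the DMSO cells. Tex101 (-0.255) and Ddx4 gave most of these sums, so they say little of the dimmer markers. Ddx4 (-0.17, adjusted p = 0.129) and Sall4 (-0.15, adjusted p = 0.127) did not pass. The part that the proportion of fibroblasts, other somatic cells and spermatogonia may have in the fall of the mitotic genes was not tested.

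Among Cdk1, its cyclins and the CDC25 phosphatases, 6 of 7 fell, with a median of -2.09. Ccna2, which encodes cyclin A2, the partner of CDK1 and CDK2 in S phase and G2, read 347 and 390 units in the induced cells, against 4962 and 5166 units in the DMSO cells. The difference was -3.71 ± 0.08 (SE, 2 arrays per group, adjusted p = 0.000365), which is 13.1-fold lower. Ccnb2, which encodes cyclin B2, read 2258 and 2383 units in the induced cells, against 26859 and 25662 units in the DMSO cells (-3.42 ± 0.07, adjusted p = 0.000365). In both genes the distance between the groups was many times that between the arrays of a group.

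Ccnb1, which encodes cyclin B1, the main mitotic partner of CDK1, read 1260 and 1360 units in the induced cells and 6145 and 5648 units in the DMSO cells (-2.09 ± 0.08, adjusted p = 0.000454). Its other 2 probes differed by -3.28 and -2.15, and both were called lower. Cdk1 itself read 359 and 415 units in the induced cells, against 2141 and 1960 units in the DMSO cells (-2.33 ± 0.11, adjusted p = 0.000505). The Cdk1 probe spreads its 60 bases over 2410 bases of the genome, across at least 1 intron, and so reads spliced transcript. It is shown here with the probe of Ttk, described below, which spans 2944 bases, because both read across a splice junction (as the array files give them, mm9):
Cdk1 (chr10:68805423-68807832, minus strand): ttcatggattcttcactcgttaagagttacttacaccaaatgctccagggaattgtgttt
Ttk (chr9:83758726-83761669, plus strand): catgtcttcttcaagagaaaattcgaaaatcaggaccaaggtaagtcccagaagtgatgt

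Of the 3 CDC25 phosphatase genes, 2 fell. Cdc25c, whose product activates CDK1 at the entry into mitosis, read 58.7 and 75.4 units in the induced cells and 318 and 270 units in the DMSO cells (-2.06 ± 0.16, adjusted p = 0.00117), and a second probe gave -1.98. With normexp the Cdc25c difference was -1.39. Cdc25a, whose product also acts at the start of S phase, read 117 and 114 units in the induced cells and 328 and 301 units in the DMSO cells (-1.37 ± 0.08, adjusted p = 0.000705). A second, dimmer Cdc25a probe differed by -0.80 and was not called (adjusted p = 0.0772 over probes).

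Cdc25b, whose product prepares CDK1 for mitosis at the centrosome, was the only one of the 45 above 0. It read 3343 and 3497 units in the induced cells, against 3473 and 3515 units in the DMSO cells. These signals overlap between the groups; after scaling both induced arrays lay slightly above both DMSO arrays, and the difference of 0.05 ± 0.06 did not pass (adjusted p = 0.552). Its other 2 probes differed by 0.02 and 0.08, and neither was called. Over 14 alternative settings its difference lay between -0.13 and 0.07 and was called in 0 of them.

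All 6 Polo, Aurora and NEK kinases fell, with a median of -1.92. Aurkb had the largest fall of the 45 and encodes Aurora B, the kinase that corrects wrong attachments at the centromere. It read 62.0 and 67.4 units in the induced cells, against 1060 and 1021 units in the DMSO cells. The difference was -3.93 ± 0.08 (adjusted p = 0.000365), which is 15.3-fold lower, and it ranked 12 from the lowest of the 17537 features. With normexp background correction, whose offset of 50 weighs most on dim probes, it was -2.97. The probe lies at chr11:68865037-68865096 of mm9, on the plus strand. Plk1, which encodes the Polo kinase of centrosomes, kinetochores and cytokinesis, read 976 and 1074 units in the induced cells and 8383 and 8067 units in the DMSO cells (-2.93 ± 0.08, adjusted p = 0.000365).

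The 3 Aurora genes all fell, with differences from -3.93 to -0.62. Aurka, whose product works at spindle poles, read 6046 and 6239 units in the induced cells and 14052 and 13756 units in the DMSO cells (-1.10 ± 0.06, adjusted p = 0.000698). Aurkc, whose product takes over Aurora B's place in meiosis, read 240 and 283 units in the induced cells and 427 and 415 units in the DMSO cells (-0.62 ± 0.10, adjusted p = 0.00762). Plk4, the kinase that starts centriole duplication, fell by 2.37 ± 0.09, and a second probe gave -2.47. Nek2, a kinase of centrosome separation, fell by 1.48 ± 0.07.

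All 6 genes of the spindle checkpoint and its target Cdc20 fell, with a median of -1.37. Ttk, which encodes the checkpoint kinase MPS1, read 34.9 and 41.0 units in the induced cells and 238 and 229 units in the DMSO cells (-2.55 ± 0.10, adjusted p = 0.000453), and -1.52 with normexp. Bub1, which encodes a kinase that recruits the other checkpoint proteins, read 1144 and 1212 units in the induced cells and 4407 and 4404 units in the DMSO cells (-1.83 ± 0.07, adjusted p = 0.000423). The 2 Bub1 probes differed in size but not in direction, since the dimmer one fell by 0.43, and the mean over both gave -1.13. Bub1b, which encodes BUBR1, fell by 1.70 ± 0.07.

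Mad2l1, which encodes the MAD2 protein that binds CDC20, fell by 1.01 ± 0.11, and its second probe gave -0.98. Cdc20, which encodes the activator of the anaphase-promoting complex, stayed bright in both groups, at 19520 and 20749 units in the induced cells and 43791 and 43630 units in the DMSO cells (-1.04 ± 0.07, adjusted p = 0.000796). Bub3, whose product carries BUB1 and BUBR1 to the kinetochore, had the smallest difference of the 43 that passed. It read 8469 and 9412 units in the induced cells and 11765 and 11102 units in the DMSO cells (-0.28 ± 0.09, adjusted p = 0.0437). Its other probes that passed differed by -0.27, which was not called, and by -0.97, which was. The Bub3 call was lost in 7 of 14 alternative settings, the omission of any 1 array among them (adjusted p up to 0.161).

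**Figure D2:**
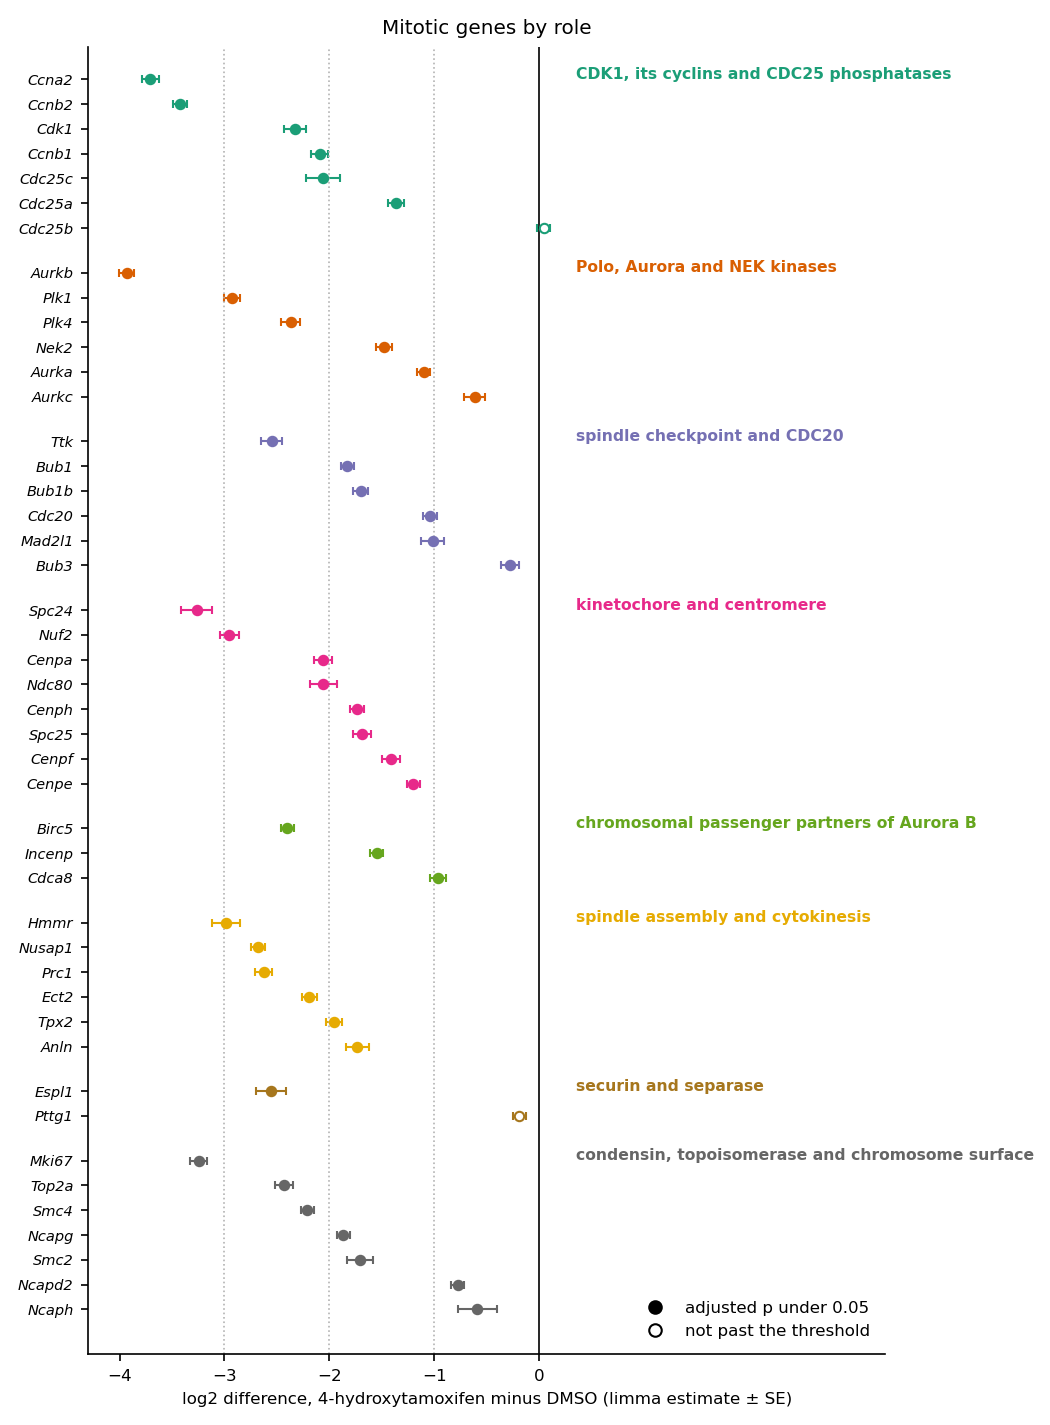
Each point is the log2 difference of 1 gene, induced (4-hydroxytamoxifen) minus DMSO, with the SE of the limma fit from 2 arrays per group. Filled points passed an adjusted p of 0.05, and the 2 open points, Cdc25b at 0.05 and Pttg1 at -0.19, did not.

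All 8 genes of the kinetochore and centromere fell, each at least 2-fold, with a median of -1.90. The NDC80 complex is the 4-part rod that grips microtubules. Of its genes, Spc24 read 88.4 and 114 units in the induced cells and 1049 and 991 units in the DMSO cells (-3.27 ± 0.15, adjusted p = 0.000503), and -2.66 with normexp. Nuf2 read 250 and 257 units in the induced cells and 2206 and 1943 units in the DMSO cells (-2.95 ± 0.09, adjusted p = 0.000382). Ndc80 fell by 2.06 ± 0.13 and Spc25 fell by 1.69 ± 0.09, so all 4 subunits fell, by unequal amounts.

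Cenpa, which encodes the histone H3 variant that marks centromeres, fell by 2.06 ± 0.08. Cenph, a gene of the inner kinetochore, fell by 1.74 ± 0.07. Cenpe, which encodes the kinesin that brings chromosomes to the spindle equator, read 9766 and 10047 units in the induced cells and 23928 and 24066 units in the DMSO cells (-1.20 ± 0.06, adjusted p = 0.000588). Cenpf, a gene of the outer kinetochore, fell by 1.41 ± 0.09. The probes of Cenph (chr13:101534182-101536833) and Ccnb1 (chr13:101549634-101549693) are near neighbours on mm9, both on the minus strand.

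The 3 partners of Aurora B in the chromosomal passenger complex fell, with a median of -1.55. Birc5, which encodes survivin, read 2362 and 2357 units in the induced cells and 12944 and 13327 units in the DMSO cells (-2.40 ± 0.06, adjusted p = 0.000365). Incenp, which encodes the scaffold that activates Aurora B, read 11818 and 11533 units in the induced cells and 35924 and 36039 units in the DMSO cells (-1.55 ± 0.06, adjusted p = 0.000450). Cdca8, which encodes borealin, fell by 0.97 ± 0.08, and a second probe gave -1.16. All 3 differences were smaller in size than that of Aurkb, whose product belongs to the same complex.

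All 6 genes of spindle assembly and cytokinesis fell at least 2-fold, with a median of -2.41. Hmmr, which encodes a spindle and centrosome protein, read 184 and 212 units in the induced cells and 1808 and 1503 units in the DMSO cells (-2.99 ± 0.13, adjusted p = 0.000504). Nusap1, whose product bundles microtubules near chromosomes, read 303 and 319 units in the induced cells and 2096 and 2107 units in the DMSO cells (-2.68 ± 0.06, adjusted p = 0.000365). The mean over its 2 probes gave -2.06, but the dimmer probe was not well above background in the induced cells. Prc1, whose product crosslinks the midzone of the late spindle, fell by 2.63 ± 0.08. Ect2, which encodes the exchange factor that starts the cleavage furrow, fell by 2.19 ± 0.07. Tpx2, which encodes the activator of Aurora A, fell by 1.96 ± 0.08, while Aurka itself fell by 1.10. Anln, which encodes the furrow protein anillin, fell by 1.73 ± 0.11, and its second, dimmer probe was not called at -0.87.

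Of securin and separase, 1 of 2 genes fell. Espl1, which encodes separase, the protease that opens cohesin, read 692 and 821 units in the induced cells and 5149 and 4250 units in the DMSO cells (-2.56 ± 0.15, adjusted p = 0.000697). Pttg1, which encodes securin, its inhibitor, read 12799 and 12714 units in the induced cells and 15593 and 15042 units in the DMSO cells. The Pttg1 groups did not overlap, but the difference of -0.19 ± 0.06 did not pass (adjusted p = 0.0583). It passed in 3 of 14 alternative settings, with differences from -0.37 to -0.15 over all 14. The difference between Espl1 and Pttg1 was not tested.

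**Figure D3:**
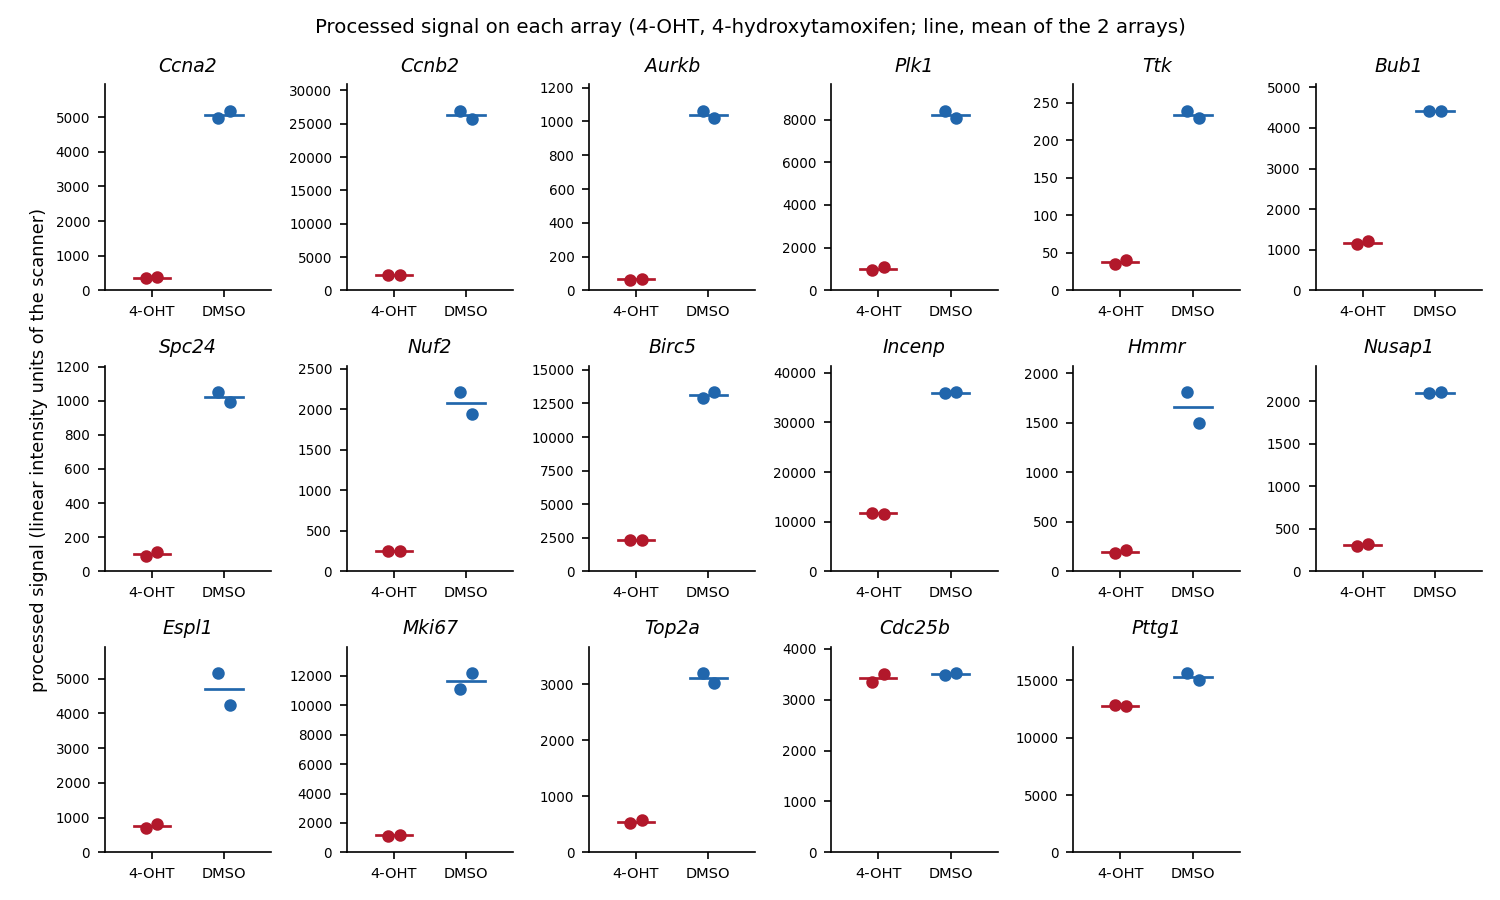
Processed signal, in linear scanner units before scaling, on each induced (4-OHT) and each DMSO array, with axes from 0 and a line at the mean of the 2 arrays. Shown are up to 2 genes per role with the largest called difference, then Cdc25b and Pttg1, which were not called; in each of the other 15 genes both induced arrays lie far under both DMSO arrays.

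All 7 genes of condensin, topoisomerase and the chromosome surface fell, with a median of -1.87. Mki67, which encodes Ki-67, the coat protein of mitotic chromosomes used as a marker of dividing cells, read 1121 and 1207 units in the induced cells and 11121 and 12168 units in the DMSO cells (-3.25 ± 0.08, adjusted p = 0.000365). A second Mki67 probe fell by 3.52. Top2a, which encodes the topoisomerase that untangles sister chromatids, read 516 and 573 units in the induced cells and 3192 and 3016 units in the DMSO cells (-2.44 ± 0.09, adjusted p = 0.000410).

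The subunits of condensin I, the ring that compacts chromosomes, fell by different amounts. Smc4 fell by 2.21 ± 0.06 and Smc2 fell by 1.70 ± 0.13; they encode the ATPase pair of the ring. All 4 Smc2 probes were called lower, with differences from -1.95 to -1.60. The dimmest, at -1.60, was not well above background in the induced cells (14.7 and 13.7 units). It passed the filter through the DMSO arrays alone, so its call adds little. Ncapg fell by 1.87 ± 0.06 and Ncapd2 fell by 0.78 ± 0.06, and they encode its HEAT-repeat subunits. Ncaph, which encodes the kleisin that closes the ring, read 612 and 856 units in the induced cells and 1209 and 1092 units in the DMSO cells. Its difference of -0.59 ± 0.19 passed narrowly (adjusted p = 0.0475), and the ratio between its induced arrays was the widest among the 45 genes. The Ncaph call was lost in 5 of 14 alternative settings, among them the omission of the first induced array or of either DMSO array (adjusted p up to 0.116).

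Genes of the same machinery outside the 45 were also counted, from lists that were chosen with earlier results of these data known. Their counts stand against the 29% of all features called lower and the 40.5% called higher. The anaphase-promoting complex, with its E2 enzymes and inhibitors, fell in 8 of 18 genes and rose in 2, with a median of -0.20. Scaled to the array median, 13 were called lower and 1 higher, beside 6582 lower and 5774 higher of the 17537 features. With spike-in scaling 6 were called lower and 2 higher, beside 4804 lower and 4851 higher of the 17537 features. Its largest falls were in the E2 enzyme gene Ube2c (-2.56 ± 0.10, adjusted p = 0.000451) and the inhibitor gene Fbxo5 (-2.36 ± 0.07, adjusted p = 0.000365). The subunit genes Anapc16 (0.77 ± 0.06, adjusted p = 0.00111) and Anapc7 (0.27 ± 0.07, adjusted p = 0.0296) were the 2 called higher. The core subunit gene Anapc1 read 33007 and 33261 units in the induced cells and 36102 and 34740 units in the DMSO cells, a difference of -0.02 that did not pass. The median of the list lay much nearer to that of all features, 0.12, than to that of the 45.

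Of 35 further kinetochore and centromere genes, 29 fell and 4 rose, with a median of -1.36. Ska1, a gene of the microtubule-binding SKA complex, fell by 3.04 ± 0.09 (adjusted p = 0.000377). Oip5, a gene of CENP-A loading, fell by 2.43 ± 0.07 (adjusted p = 0.000377), and Dsn1, of the MIS12 complex, fell by 2.34 ± 0.07 (adjusted p = 0.000382). The 4 genes called higher, Zwint, Mad1l1, Cenpb and Cenpc1, lay between 0.22 and 0.38. When arrays were scaled to their median or to the spike-in probes, 0 of the list were called higher. Of the 17537 features, 5774 were called higher with median scaling and 4851 with spike-in scaling. All 6 genes in a list of condensin II and SMC partners fell, with a median of -0.89. The condensin II subunit genes were Ncapg2 (-1.56), Ncaph2 (-1.01) and Ncapd3 (-0.45). The largest fall of the list was that of the chromosome kinesin gene Kif4 (-2.79 ± 0.08, adjusted p = 0.000365), which is not a condensin II subunit gene.

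Of 23 other mitotic kinases and regulators of CDK1, 13 fell and 8 rose, with a median of -0.63. With spike-in scaling 4 were called higher, beside 4851 of the 17537 features. The 8 that rose are no larger a share than the 40.5% of all features called higher. Melk, which encodes a kinase of dividing cells, fell by 2.07 ± 0.06 (adjusted p = 0.000365). Ccnf, which encodes cyclin F, fell by 2.06 ± 0.10 (adjusted p = 0.000578), and Mastl, which encodes the Greatwall kinase, fell by 1.63 ± 0.09 (adjusted p = 0.000650). Some relatives of the Polo and NEK kinases described above were among the 8. Plk2 rose by 1.29 ± 0.08 (adjusted p = 0.000746), at 2850 and 2646 units in the induced cells against 1142 and 1226 units in the DMSO cells. Nek7 rose by 1.25 ± 0.17 (adjusted p = 0.00419), at 2175 and 1874 units in the induced cells against 773 and 1033 units in the DMSO cells. Plk2 and Plk3 are known as stress-response genes, and Plk3 rose by 0.65 ± 0.09 (adjusted p = 0.00396). These members that rose were named after their values were seen.

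**Figure D4:**
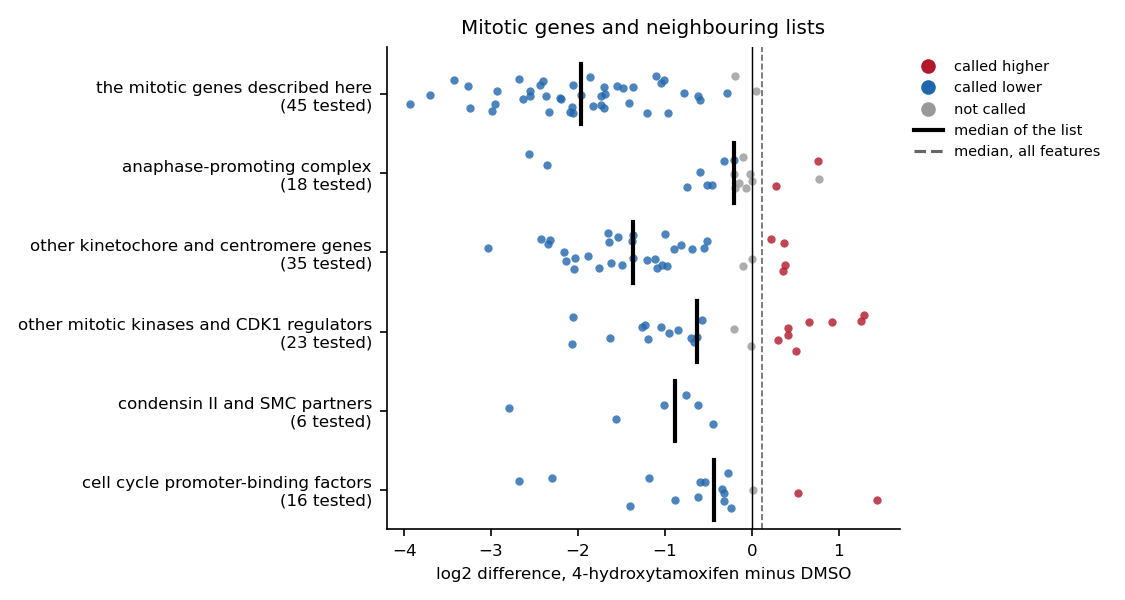
Each point is the log2 difference of 1 gene, induced (4-hydroxytamoxifen) minus DMSO, red where called higher, blue where called lower and grey where not called; points are spread vertically for visibility only. Black bars are list medians (-1.96 for the 45 mitotic genes at the top) and the dashed line is the median of all features, 0.12.

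Promoters of mitotic genes are known for pairs of elements, the cell cycle genes homology region, or CHR, which the MuvB complex reads, and CCAAT boxes, which the factor NF-Y reads. MuvB joins B-Myb and FOXM1 to activate these genes and joins the pocket proteins p107 and p130 with E2F4 to repress them. Among 16 genes of these factors, 13 fell and 2 rose, with a median of -0.44. With spike-in scaling 9 fell and 1 rose, beside 4804 lower and 4851 higher of the 17537 features. Mybl2, which encodes B-Myb, read 278 and 315 units in the induced cells and 2064 and 1943 units in the DMSO cells (-2.68 ± 0.09, adjusted p = 0.000406). Foxm1 read 121 and 114 units in the induced cells and 626 and 591 units in the DMSO cells (-2.29 ± 0.08, adjusted p = 0.000392). Rbl2, which encodes p130, rose by 1.44 ± 0.12 (adjusted p = 0.00124), at 256 and 244 units in the induced cells against 87.4 and 108 units in the DMSO cells. The other one called higher was the MuvB subunit gene Lin52, at 0.53. Of the other genes on the repressor side, Rbl1, which encodes p107, fell by 0.32 ± 0.08 (adjusted p = 0.0272) and E2f4 fell by 0.32 ± 0.09 (adjusted p = 0.0382). E2f5, an E2F4 relative, fell by 1.40 ± 0.07 (adjusted p = 0.000535).

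Promoter windows, 250 bases before to 50 bases after the transcript start, were taken from RefSeq on GRCm38.p6, and 38 of the 45 genes had one. They were searched on both strands for the CHR as TTTGAA or TTCGAA and for the CCAAT box as CCAAT. A CHR and a CCAAT box can share at most 1 base, and TTCGAA reads the same on both strands and counts once. A CHR was found in 65.8% of the 38 genes and in 21.7% of all 27025 genes with a window, and in 16.5% of the 11952 such genes that were tested and are not among the 45. A CCAAT box was found in 76.3% of the 38, in 41.1% of all genes with a window and in 42.6% of the tested others. Both elements were found in 60.5% of the 38, in 9.65% of all genes with a window and in 8.06% of the tested others. Genes with several windows count as holding a motif if any window does. Such a match describes letters and not a bound site.

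The windows of the 4 genes with the largest falls that have one, and of the 2 genes that did not pass the test, are shown. They set the elements of genes called lower beside those of genes not called. Capitals mark matches to the CHR or the CCAAT box, on either strand (RefSeq, GRCm38.p6, written along the gene's strand):
Ccnb2 (chr9:70421505-70421804, minus strand): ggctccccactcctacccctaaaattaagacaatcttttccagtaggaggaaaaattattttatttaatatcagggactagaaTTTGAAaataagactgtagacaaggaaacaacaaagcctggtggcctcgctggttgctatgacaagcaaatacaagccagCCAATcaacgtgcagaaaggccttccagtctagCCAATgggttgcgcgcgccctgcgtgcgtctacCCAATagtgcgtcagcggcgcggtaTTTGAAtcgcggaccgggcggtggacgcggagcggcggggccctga
Mki67 (chr7:135716330-135716629, minus strand): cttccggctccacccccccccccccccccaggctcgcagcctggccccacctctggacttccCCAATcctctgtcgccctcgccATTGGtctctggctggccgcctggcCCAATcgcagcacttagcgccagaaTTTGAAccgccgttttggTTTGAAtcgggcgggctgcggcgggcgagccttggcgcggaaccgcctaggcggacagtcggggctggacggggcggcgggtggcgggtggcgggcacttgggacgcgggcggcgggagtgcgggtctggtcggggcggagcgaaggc
Hmmr (chr11:40733388-40733687, minus strand): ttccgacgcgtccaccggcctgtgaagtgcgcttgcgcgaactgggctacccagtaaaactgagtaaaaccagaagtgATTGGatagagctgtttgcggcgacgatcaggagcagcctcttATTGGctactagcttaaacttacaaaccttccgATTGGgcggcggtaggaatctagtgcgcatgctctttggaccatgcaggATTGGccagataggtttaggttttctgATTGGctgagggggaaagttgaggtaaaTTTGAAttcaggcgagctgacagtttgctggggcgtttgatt
Nuf2 (chr1:169531415-169531714, minus strand): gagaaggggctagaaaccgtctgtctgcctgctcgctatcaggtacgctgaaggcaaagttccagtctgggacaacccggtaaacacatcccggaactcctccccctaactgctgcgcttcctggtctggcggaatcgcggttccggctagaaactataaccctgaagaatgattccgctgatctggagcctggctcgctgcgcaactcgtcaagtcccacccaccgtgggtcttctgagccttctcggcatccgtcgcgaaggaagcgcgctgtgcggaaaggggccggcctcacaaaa
Cdc25b (chr2:131186698-131186997, plus strand): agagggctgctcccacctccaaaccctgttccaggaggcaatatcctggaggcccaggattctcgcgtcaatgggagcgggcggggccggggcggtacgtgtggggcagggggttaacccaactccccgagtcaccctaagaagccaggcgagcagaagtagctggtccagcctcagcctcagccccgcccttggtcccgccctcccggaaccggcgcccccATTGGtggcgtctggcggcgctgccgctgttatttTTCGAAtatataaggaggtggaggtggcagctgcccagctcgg
Pttg1 (chr11:43425932-43426231, minus strand): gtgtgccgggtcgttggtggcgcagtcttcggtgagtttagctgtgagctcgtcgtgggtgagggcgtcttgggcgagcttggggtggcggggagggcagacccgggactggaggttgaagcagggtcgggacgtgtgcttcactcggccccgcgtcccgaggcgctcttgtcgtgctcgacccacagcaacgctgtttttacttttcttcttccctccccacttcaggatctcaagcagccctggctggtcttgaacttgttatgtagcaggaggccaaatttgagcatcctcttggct

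In Ccnb2 the 3 CCAAT boxes begin at -87, -54 and -21 from the start and are 33 bases apart. Its TTTGAA copies begin at -167, before those boxes, and at base 5 of the transcript. Mki67 holds 2 copies of TTTGAA, which begin at -116 and -98, and 3 CCAAT boxes before them. Hmmr holds 5 CCAAT boxes, all on the opposite strand, and a TTTGAA that begins at base 9. Nuf2 holds neither element in this window, and its transcript fell by 2.95. Cdc25b holds both, a TTCGAA at base 8 and a CCAAT box on the opposite strand at -28, and its transcript was not called. Pttg1 holds neither.

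The 38 genes fall into 4 classes by the elements they hold. The 23 genes with both elements had a median difference of -1.87, with a range from -3.42 to 0.05, and the 7 with neither had a median of -2.37, with a range from -2.95 to -0.19. The 6 with a CCAAT box alone had a median of -1.42, with a range from -2.09 to -0.62, and the 2 with a CHR alone, Ndc80 and Anln, had a median of -1.89. Among the other tested genes with a window, 31.4% of the 963 with both elements were called lower, against 28.6% of the 5847 with neither. These shares lie near the 29% of all features called lower. They are descriptions without a test, because genes of one pathway are not independent.

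**Figure D5:**
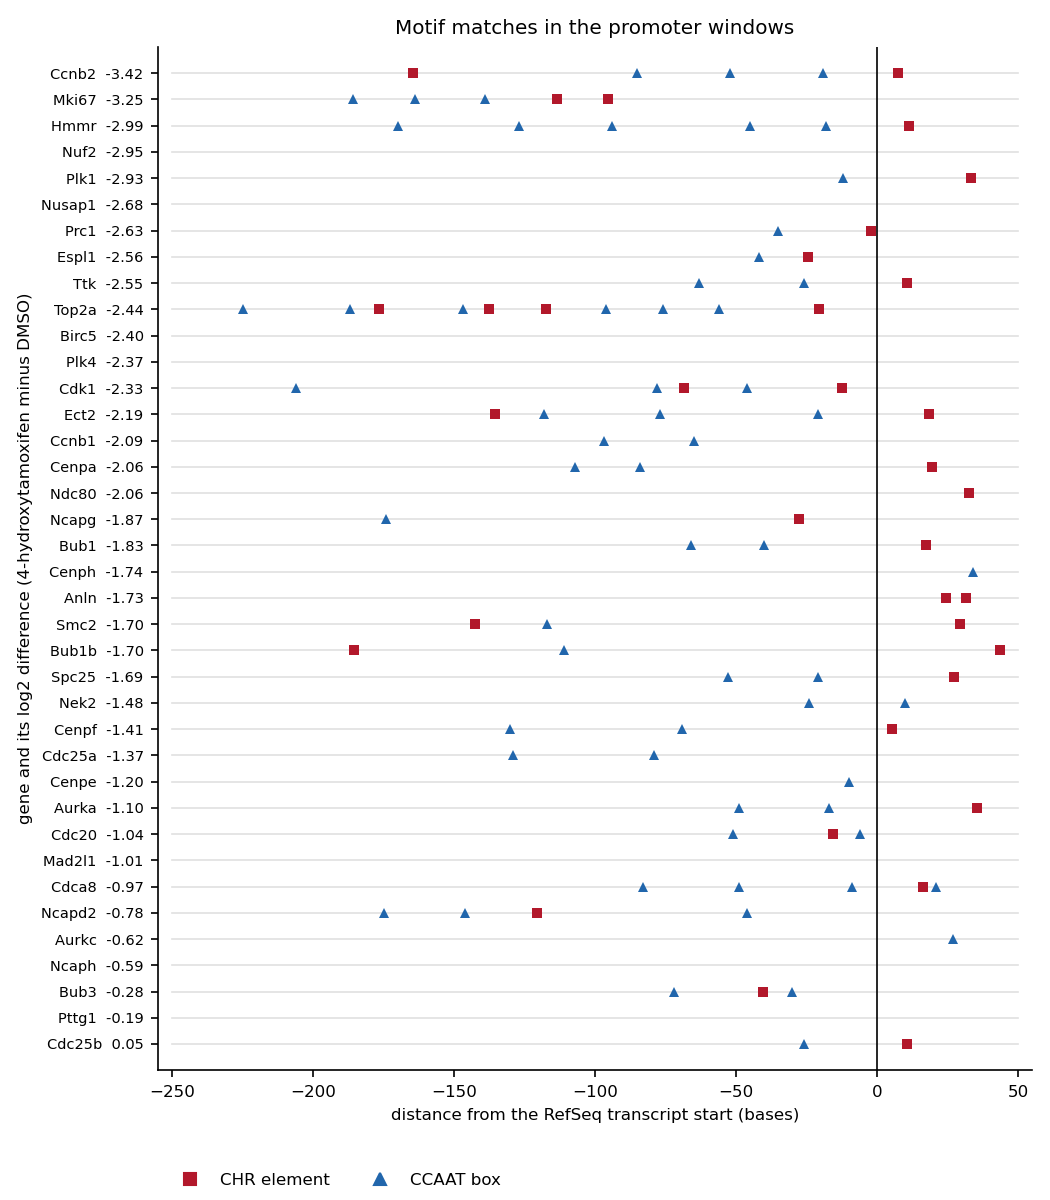
Rows are the 38 genes with a RefSeq promoter window, ordered by their log2 difference (induced minus DMSO, printed beside the name), and the x axis is the distance in bases from the transcript start at 0. Red squares mark CHR matches and blue triangles CCAAT boxes on either strand, in the first window of genes with several; Ccnb2 at the top and Cdc25b at the bottom hold both, and Nuf2 and Pttg1 hold neither.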

How the data were processed

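Total RNA of cultured cells was labelled with Cy3 and hybridised to Agilent 1-colour arrays with 60-base probes, 2 per group. The deposited scanner files hold intensity values per spot, and per the file headers Feature Extraction 10.7.3.1 subtracted background and made the processed signals; the submitters' processing notes name version 9.5. The deposited value table holds log2 values that differ from the log2 processed signal by 1 constant on each array, and it served as an alternative. The 4 arrays share 1 slide and scan time; the induced samples took positions 2 and 4 of it, the DMSO samples positions 1 and 3.

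Control and outlier spots (60 to 71 per array) were left out, spots of a probe averaged, and log2 processed signals scaled to each array's 75th percentile. A probe was tested if 2 or more arrays read it well above background, and the brightest probe stood for its gene. Names came from RefSeq (GRCm38.p6): 33636 of 41174 probes matched. Coordinates of probes are those of the files, on mm9, which give no exon or UTR label. The contrast was fitted with limma 3.58.1 (lmFit, then eBayes, under R 4.3.3) over all 17537 features, with Benjamini-Hochberg adjustment at 0.05; the fit was tested on simulated data. Nothing in the labels says that replicates were separate cultures, and if they were technical repeats, the p-values cover technical spread alone. The number of arrays limits the precision, and an exact permutation of 2 against 2 cannot go below p = 0.333. Same-numbered arrays did not deviate together (correlation -0.0448) and were not taken as pairs. Per-array signals were given, by a rule, for the 2 members of each role with the largest called difference and for members not called; others were added. Genes of a list were named for their size, up to 3 per list, with further genes named after their values were seen. Members and lists were chosen with earlier results of these data known. Protein motifs, Zbtb16 and Insl3 were not analysed here.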

Additional observations from a re-analysis of the deposited data

How the results depend on the processing

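Over 14 alternative settings, 41 to 44 of the 45 genes were called lower and 0 higher in each, and no called difference changed sign. The calls that changed were Bub3 and Ncaph, lost in 7 and 5 settings, and Pttg1, gained with normexp, with median scaling and with a filter on all arrays. Equal replicate numbers as a block, in the paired fit, left 41 genes lower, with Bub3 and Ncaph lost. The median difference, -1.96, was -1.73 with normexp background correction, -2.14 with median scaling, -2.11 with spike-in scaling, -2.02 with the mean of the probes of a gene, and -2.03 to -1.89 when 1 array was left out. The anaphase-promoting complex list had 13 genes lower and 1 higher with median scaling and with the mean of probes, and 1 higher without the filter on dim probes. With spike-in scaling it had 6 lower and 2 higher. Further kinetochore genes had 0 higher with median scaling, spike-in scaling and no filter, and 1 to 3 when 1 array was left out. With spike-in scaling 4 of the other kinases and 1 of the promoter-binding factors were higher, and 9 of the promoter-binding factors were lower instead of 13. The median of all features was 0.12, but -0.06 with median scaling and -0.04 with spike-in scaling. Of all called features 58.3% were higher, but 46.7% with median scaling and 50.2% with spike-in scaling. The fold of 6 genes moved by over 1.5 times: with normexp, Aurkb was at -2.97, Spc24 at -2.66, Ttk at -1.52 and Cdc25c at -1.39, and with the mean of probes Nusap1 was at -2.06 and Bub1 at -1.13. Groups of 2 arrays were too small for a test of outlying samples.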
